A study of Homo sapiens with 6 samples.

Results

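The proapoptotic members of the BCL2 family are the genes that carry a cell towards mitochondrial death. They were examined in HPNE-hTERT cells after 4 days of the chemotherapy mixture FOLFIRINOX. The 10 genes chosen by name were the pore-forming effectors BAX, BAK1 and BOK and the BH3-only genes BBC3, PMAIP1, BCL2L11, BID, BAD, BMF and BIK, out of 62754 genes in the deposited table. Each had a single row, and 9 of the 10 passed the filter on low values, the exception being BIK.

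HPNE-hTERT cells are a non-malignant line of the human pancreatic duct, kept dividing by telomerase, and this line served for both groups. The FOLFIRINOX group (3 libraries) received SN-38 (25 nM) together with oxaliplatin (5 µM) and 5-fluorouracil (10 µM) for 4 days to induce senescence, and the vehicle group (3 libraries) received DMSO and was taken on day 4 as well. 5-fluorouracil blocks thymidylate synthesis, SN-38, formed in the body from irinotecan, traps topoisomerase I on DNA, and oxaliplatin crosslinks DNA. Polyadenylated RNA was sequenced, and the table names its columns by treatment and P number, with P14, P15 and P19 present in each group.

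In the mitochondrial pathway of apoptosis, BAX and BAK1 open the outer mitochondrial membrane and release cytochrome c, which drives caspase activation. Antiapoptotic proteins such as BCL2, BCL-XL and MCL1 hold them in check, and the BH3-only proteins tip this balance by binding the antiapoptotic proteins or the effectors themselves. Several of the genes, among them BAX, BBC3 (PUMA) and PMAIP1 (NOXA), are textbook p53 targets, and DNA damage of the kind these drugs cause is a known activator of p53. Senescent cells are known for resisting apoptosis while carrying such signals.

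Gene counts summed to between 83981154 and 97762802 reads per library. Values below are reads divided by the authors' size factor of each library ("normalized reads"), log2 differences are FOLFIRINOX minus vehicle on the log2(normalized reads + 1) scale with their standard error, and p-values are from limma, adjusted by Benjamini-Hochberg over the 17951 genes tested. Of the ductal markers, KRT7, KRT8, KRT18, CDH1 and SOX9 passed the filter, while KRT19 stayed at or below 17.7 normalized reads and EPCAM was at 0 in 5 of 6 libraries. All 6 mesenchymal and progenitor markers passed, and no acinar or islet marker did. In vehicle, VIM averaged 522537 and NES 19020 normalized reads, and the ductal markers KRT18 and CDH1 averaged 9901 and 51.1. Mesenchymal markers were thus abundant, while EPCAM, KRT19 and CDH1 were low. The summed ductal markers were at 8899.9 to 9869 in FOLFIRINOX and 11878 to 14335 in vehicle. The summed mesenchymal markers were also lower in FOLFIRINOX, at 2245920.5 to 2679509 against 3081669.5 to 4525446. KRT18 was the largest part of the first sum (mean 7148 against 9901) and FN1 of the second (1879127 against 2772919). Singly, 2 of 5 ductal and 4 of 6 mesenchymal markers tested were called lower by limma and 0 higher. Of all genes tested, 12.2% were called lower. FN1 was not called (limma adjusted p = 0.0513). The part of these differences in the results below was not tested, and in bulk RNA fewer cells with a transcript and less of it per cell cannot be told apart.

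Promoter sequences from RefSeq (GRCh38.p14) are shown for PMAIP1 and for 3 other genes. The 3 are those with the largest fitted rises among genes with a searched motif in the window. All of them and PMAIP1 were higher within every P number, as were 33.7% of all genes tested. BMF was also higher within every P number (0.26, 1.17 and 1.06), with a larger fitted rise (0.83) than BAX (0.72). It is left out because its windows held no match, so every sequence shown holds one by selection. Each runs 5′ to 3′ on the gene's strand, from 250 bases before the start site to the last base ahead of an annotated exon, and capitals mark motif matches. BBC3 is shown at chr19:47232767-47232917 (minus strand), BCL2L11 at chr2:111120664-111120913 (plus), BAX at chr19:48954625-48954814 (plus) and PMAIP1 at chr18:59899746-59899947 (plus).
BBC3: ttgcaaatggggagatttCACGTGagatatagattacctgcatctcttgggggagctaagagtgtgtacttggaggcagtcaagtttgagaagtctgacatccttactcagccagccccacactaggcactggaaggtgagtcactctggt
BCL2L11: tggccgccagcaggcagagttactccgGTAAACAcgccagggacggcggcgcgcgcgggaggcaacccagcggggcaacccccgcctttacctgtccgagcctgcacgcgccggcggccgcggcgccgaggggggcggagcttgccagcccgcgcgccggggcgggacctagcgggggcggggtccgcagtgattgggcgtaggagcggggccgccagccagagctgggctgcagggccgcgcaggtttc
BAX: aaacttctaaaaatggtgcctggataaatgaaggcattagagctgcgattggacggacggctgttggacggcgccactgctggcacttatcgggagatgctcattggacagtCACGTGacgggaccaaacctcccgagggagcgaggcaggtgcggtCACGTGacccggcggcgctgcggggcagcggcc
PMAIP1: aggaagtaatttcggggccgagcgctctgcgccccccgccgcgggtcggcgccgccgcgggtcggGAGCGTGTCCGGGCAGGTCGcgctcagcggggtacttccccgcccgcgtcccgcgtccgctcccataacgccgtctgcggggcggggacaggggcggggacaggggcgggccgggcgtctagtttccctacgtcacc

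Windows of 300 bases (250 before and 50 after a start site) were searched on both strands for the E-box CACGTG, the forkhead motif GTAAACA and the p53 consensus site without a spacer, allowing 3 mismatches outside its C and G cores. Of the 10 genes, 9 had a window in the table; BIK had none. The E-box occurred 4 times in the BAX window, at −138, −93, −45 and −14 from the start site, and the first 2 of these are in the stretch shown. Of all 35116 windows, 7.26% held at least 1 E-box and 5 windows (0.0142%) held 4 or more. BBC3 held it at −232, and 2 of the 5 BID windows, which overlap, held it as well. The forkhead motif was found in BCL2L11 alone among the 10 genes, at −223, and in 3.42% of all windows. The p53 site was matched in PMAIP1 alone among them, at −185 with 3 mismatches, and in 1.12% of all windows. A match describes letters only, and genes without a match may hold sites outside these windows.

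Of the 9 genes tested, 4 were higher in FOLFIRINOX (BAX, BBC3, BCL2L11 and BMF) and none was called lower by limma, where 23.6% of all genes tested were called, 11.4% higher and 12.2% lower. BID alone was lower at an unadjusted p under 0.05, and edgeR and DESeq2 on the recovered reads also called 0 lower. The median log2 difference of the 9 genes was 0.62, against 0.02 over all genes tested. These genes and the lists below were chosen with earlier results of these data known. Their counts and medians, set beside those of all genes, are thus descriptions and not a test. The groups of 3 libraries did not overlap for the same 4 genes, which all lay above vehicle, where the groups were apart for 39.5% of all genes tested, 19.9% higher and 19.6% lower. With libraries paired by P number (replicate block), PMAIP1 was also called higher and BID lower, giving 5 and 1, where 44.1% of all genes tested were called, 22.3% higher and 21.8% lower. P numbers are treated as pairs because same-numbered libraries deviated together from their group means.

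**Figure D1:**
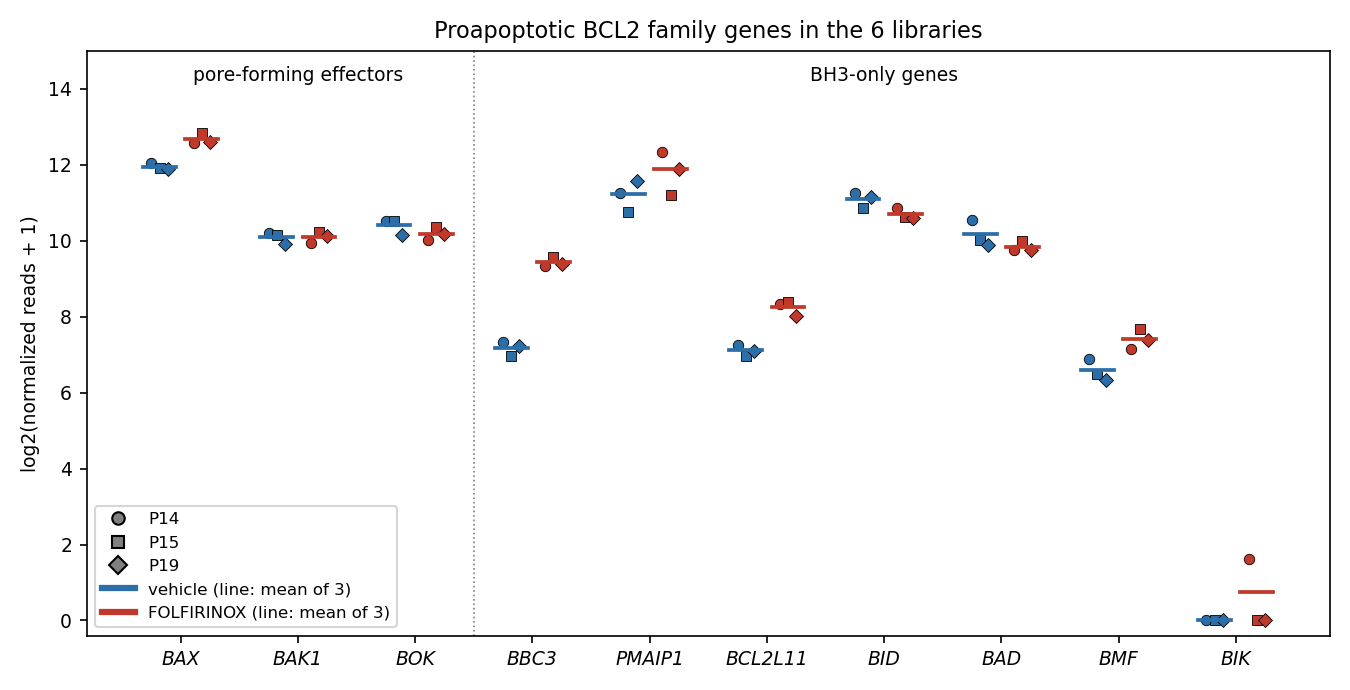
Log2(normalized reads + 1) of the 10 proapoptotic genes in each library, with symbols for the P number, blue for vehicle and red for FOLFIRINOX, and a line at the mean of the 3 libraries. BAX, BBC3, BCL2L11 and BMF have every red point above every blue one, PMAIP1 is spread widely in both groups, and BIK has reads in 1 library only.

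Among the effectors, BAX rose and the other genes did not pass the test. BAX (ENSG00000087088, GRCh38 chromosome 19, 48954815 to 48961798, plus strand) encodes the cytosolic effector that moves to mitochondria when activated. It was at 6061, 7313 and 6180.5 normalized reads in FOLFIRINOX P14, P15 and P19 and at 4186, 3873 and 3757 in their vehicle counterparts. All 3 treated libraries thus lay above all 3 vehicle libraries, with 6518 ± 691 against 3939 ± 222 (SD, n = 3), a 1.65-fold difference (log2 0.72 ± 0.15 SE, limma adjusted p = 0.0064). The difference was largest within P15, at 0.92, and smallest within P14, at 0.53.

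BAK1 (ENSG00000030110, chromosome 6, 33572547 to 33580293, minus strand), the effector that resides on mitochondria, was at 978, 1208 and 1122 in FOLFIRINOX and at 1184, 1133 and 968 in vehicle. The groups covered nearly the same range, and the log2 difference was 0.01 ± 0.17 (95% interval −0.37 to 0.39, adjusted p = 0.974). Its sign turned with TMM scaling, at −0.03. BOK (ENSG00000176720, chromosome 2, 241551424 to 241574138, plus strand), a less studied effector that is kept low by degradation of its protein, was at 1029, 1322 and 1145 against 1467, 1459 and 1140.2. The groups overlapped, with a log2 difference of −0.22 ± 0.18 (95% interval −0.62 to 0.18, adjusted p = 0.423). It was −0.13 without FOLFIRINOX P14, −0.34 without vehicle P19, −0.07 without both P14 libraries, −0.05 with GC trends removed and −0.11 with common-total scaling, and was called under none of these. The intervals of BAK1 and BOK both end below the 0.72 fitted for BAX, whose own 95% interval was 0.3856 to 1.06. The BAK1 interval, which ends at 0.3896, overlaps that of BAX, and the BOK interval does not. The differences between these genes were not tested by limma.

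The BAX to BAK1 ratio within a library, which no scaling between libraries can change, was 6.19, 6.05 and 5.51 in FOLFIRINOX and 3.53, 3.415 and 3.88 in vehicle. The 2 sets did not overlap (log2 difference 0.71, exact two-sided permutation p = 0.1, the smallest that 3 against 3 can give, and 0.12 after adjustment over 6 ratios). Per kilobase of exon, BAX made up 74.0%, 73.2% and 72.0% of the summed effector reads in FOLFIRINOX and 60.05%, 58.8% and 62.85% in vehicle. BAX was thus the most abundant effector RNA in every library, and its share was higher in each treated one.

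BBC3, which encodes PUMA, had the largest difference among these genes. PUMA binds all the main antiapoptotic BCL2 proteins and is a classical p53 target. BBC3 (ENSG00000105327, chromosome 19, 47220822 to 47232766, minus strand) was at 639.9, 756 and 663 normalized reads in FOLFIRINOX and at 159, 124 and 148 in vehicle. The lowest treated library lay far above the highest vehicle library, and the means were 686 ± 61.6 and 144 ± 17.7, a 4.77-fold difference (log2 2.25 ± 0.20, limma adjusted p = 1.4e-05). Within P14, P15 and P19 the difference was 2.00, 2.60 and 2.16. Over the 19 alternative settings it ranged from 2.15 to 2.42 and stayed past the threshold in each.

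BCL2L11 encodes BIM, a BH3-only protein that can engage BAX directly and that is known to answer to forkhead factors and to growth factor withdrawal. The gene (ENSG00000153094, chromosome 2, 111119378 to 111168447, plus strand) was at 324, 331 and 259.6 in FOLFIRINOX and at 153, 124 and 135 in vehicle. No treated library fell into the vehicle range, and the 2.21-fold difference passed the test (log2 1.14 ± 0.21, adjusted p = 0.0031). BCL2L11 shares 727 exonic bases in GENCODE 29 with MIR4435-2HG, a long noncoding RNA host gene on the opposite strand. MIR4435-2HG was at 4185, 3777 and 3985 in FOLFIRINOX and 6063, 5641 and 5618 in vehicle, a fall by 0.54 on the log2 scale (limma adjusted p = 0.0216). The much more abundant partner thus moved in the opposite direction. Whether counting used strand is not stated here, and reads in the shared bases cannot be told apart.

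BMF, a BH3-only gene whose protein is held at the cytoskeleton through dynein light chain, rose by the smallest margin past the threshold. The gene (ENSG00000104081, chromosome 15, 40087890 to 40108892, minus strand) was at 139.9, 202 and 166 in FOLFIRINOX and 117, 89.1 and 79.4 in vehicle. The groups were separated by the gap between FOLFIRINOX P14 and vehicle P14, and the means were 169 ± 31.0 and 95.1 ± 19.4 (log2 0.83 ± 0.26, limma adjusted p = 0.0381, 1.77-fold). The call was lost without FOLFIRINOX P15 (adjusted p = 0.132) or P19 (0.102), without vehicle P15 (0.0986) or P19 (0.087), and with no filter on low values (0.0811). With the replicate block the adjusted p was 0.0053, and over all alternatives it ran from 5.3e-04 to 0.132.

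PMAIP1 encodes NOXA, a short BH3-only protein that neutralizes MCL1 in particular. The gene (ENSG00000141682, chromosome 18, 59899948 to 59904306, plus strand) was at 5204, 2349.6 and 3806 in FOLFIRINOX P14, P15 and P19 and at 2441, 1724 and 3047 in the matching vehicle libraries. FOLFIRINOX P15 lay below vehicle P14 and P19, so the groups overlapped, and the unpaired test was not passed (3786 ± 1427 against 2404 ± 662, log2 0.62 ± 0.29, 95% interval −0.02 to 1.26, limma adjusted p = 0.148). Each treated library was nevertheless above the vehicle library of its own P number, by 1.09, 0.45 and 0.32, as for 33.7% of all genes tested. With the replicate block PMAIP1 was called higher, with the same difference and a standard error of 0.14 (limma adjusted p = 3.8e-04). P14, the pair with the largest difference, also had the highest mitochondrial ribosomal RNA share of each group, 2.74% in FOLFIRINOX and 0.864% in vehicle, where the other libraries had 1.18% and 1.23%, and 0.563% and 0.552%. The part of this in the result was not tested. Without both P14 libraries the unpaired difference was 0.38 (adjusted p = 0.486), and with each library's GC trend removed it was 0.41 (0.198). Without FOLFIRINOX P15 alone it was 0.93 (0.0333). Without vehicle P15 it was 0.40 (0.399), and without FOLFIRINOX P14 it was 0.35 (0.409).

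BID, the BH3-only protein that caspase 8 cleaves to link death receptors to mitochondria, went the other way. The gene (ENSG00000015475, chromosome 22, 17734138 to 17774770, minus strand) was at 1867, 1576 and 1544 in FOLFIRINOX and at 2432, 1850.4 and 2268 in vehicle. Only FOLFIRINOX P14 reached into the vehicle range, just above vehicle P15. The unpaired log2 difference of −0.39 ± 0.17 did not pass (1662 ± 178 against 2184 ± 299.9, limma adjusted p = 0.131). BID was lower within each P number, by −0.38, −0.23 and −0.55, as were 31.5% of all genes tested. It was called lower with the replicate block (limma adjusted p = 0.0148).

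BAD, a BH3-only protein that survival kinases switch off by phosphorylation and 14-3-3 binding, did not pass either test. The gene (ENSG00000002330, chromosome 11, 64269830 to 64284704, minus strand) was at 865, 1019 and 869 in FOLFIRINOX and 1480.3, 1032 and 940.2 in vehicle. Vehicle P14 stood above the rest, and the other 5 libraries lay close together. The log2 difference was −0.30 ± 0.20 (95% interval −0.75 to 0.15, limma adjusted p = 0.313, and 0.107 with the replicate block). BAD was lower within each P number, by −0.77, −0.02 and −0.11. The difference was −0.11 without vehicle P14 (adjusted p = 0.739), −0.07 without both P14 libraries (0.861), −0.13 with GC trends removed (0.512) and −0.19 with common-total scaling (0.544). BAD shares 404 exonic bases with GPR137 on the opposite strand, which was at 823, 998 and 777 against 882, 864 and 522 (log2 0.23 ± 0.23, limma adjusted p = 0.511).

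BIK (ENSG00000100290, chromosome 22, 43110748 to 43129712, plus strand), a BH3-only gene of the endoplasmic reticulum, had 2 reads in FOLFIRINOX P14 and 0 in the other 5 libraries. That is below the 3 reads that a count of 0 allows per library, so no fold is given and the gene was not tested. In the authors' deposited table BIK has a log2 fold change of 1.88 with a standard error of 4.03 and no adjusted p. That table calls the same 4 genes as limma at 0.05, with the adjusted p of BMF at 0.035, and gives PMAIP1 0.0842 and BID 0.157.

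**Figure D2:**
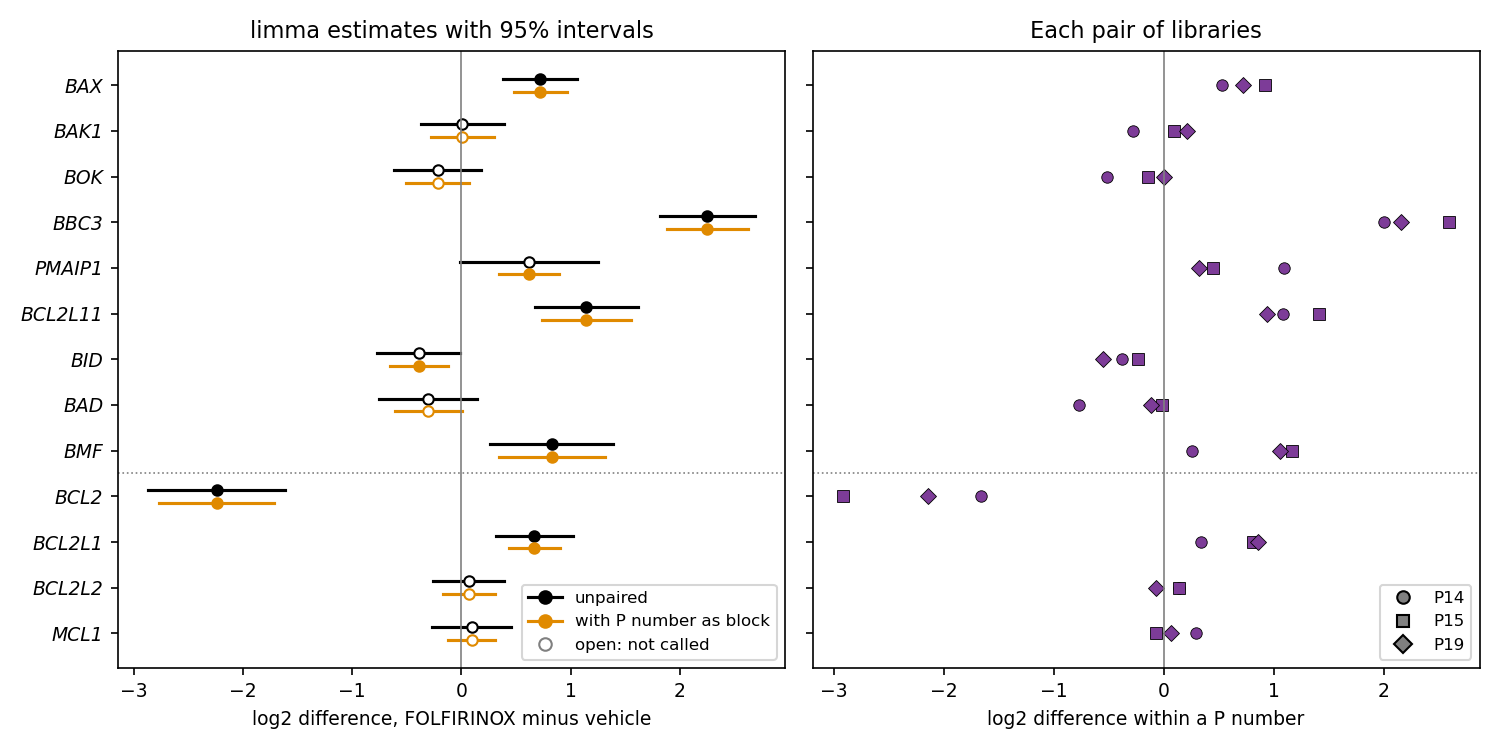
Left, log2 differences (FOLFIRINOX minus vehicle) with 95% intervals from limma for the 9 proapoptotic genes tested and, below the dotted line, 4 antiapoptotic genes, unpaired in black and with the P number as block in orange, with filled points where the adjusted p was under 0.05. Right, the log2 difference within each P number; PMAIP1 and BID lie on 1 side of 0 in all 3 pairs and are called only with the block.

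Compared per kilobase of exon (GENCODE 29 lengths), the genes fell into levels far apart. In vehicle the order was BAX (mean 1522 normalized reads per kb), PMAIP1 (1076), BAD (674), BOK (500.0), BAK1 (495), BID (491), BBC3 (45.1), BCL2L11 (20.6), BMF (17.5) and BIK (0). PMAIP1 and BAD overlapped in their ranges over the 3 libraries, as did BOK with BAK1, BAK1 with BID, and BCL2L11 with BMF. The 3 genes with the lowest levels that passed the filter were thus all among those that rose. In FOLFIRINOX the order was BAX (2519.6), PMAIP1 (1694), BAD (537), BAK1 (498), BOK (429.8), BID (374), BBC3 (216), BCL2L11 (45.8), BMF (31.1) and BIK (0.72). BBC3 stayed in the seventh place in both orders, below the whole range of BID. The 4 genes from BAD to BID overlapped with their neighbours in the treated libraries.

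Within the summed BH3-only reads per kilobase, PMAIP1 made up 65.9%, 45.2% and 60.0% in FOLFIRINOX P14, P15 and P19 and 42.0%, 41.3% and 54.4% in vehicle. The ranges overlap, with PMAIP1 first in every library. BBC3 went from 1.92%, 2.09% and 1.85% in vehicle to 5.70%, 10.2% and 7.35% in FOLFIRINOX. BID made up 21.0%, 22.3% and 20.4% in vehicle and 11.9%, 15.2% and 12.2% in FOLFIRINOX. The shares of BBC3 and of BID did not overlap between groups. They are descriptions without a test, and a share falls when another gene of the sum rises.

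**Figure D3:**
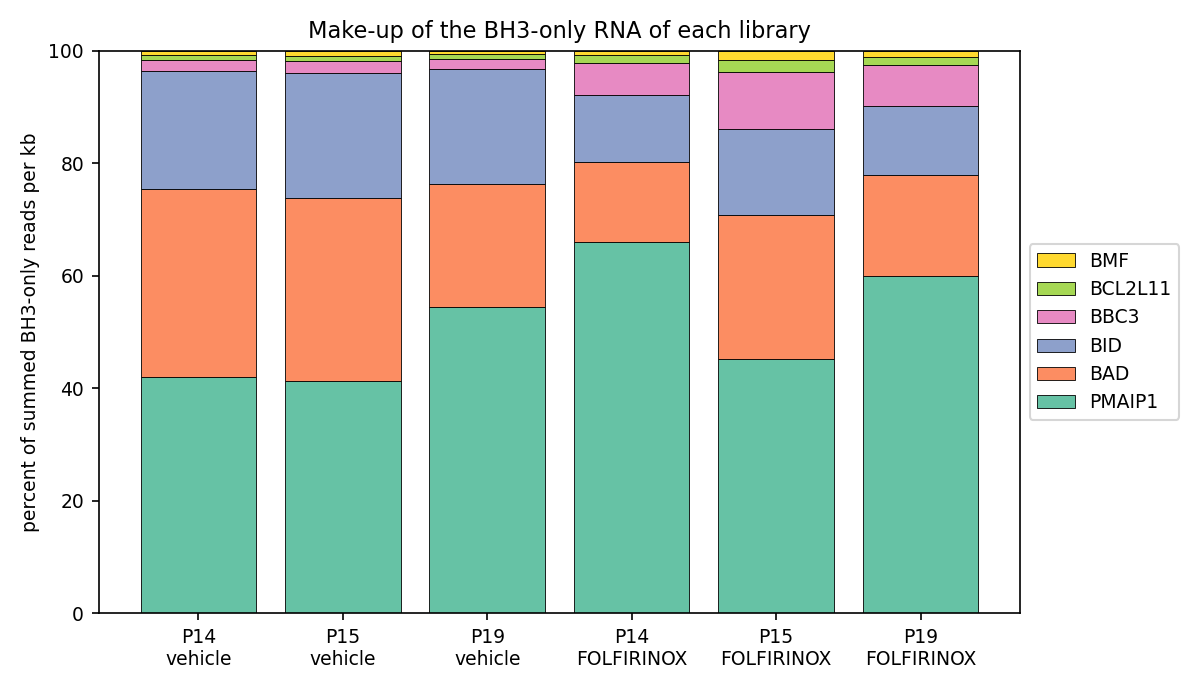
Percent of the summed BH3-only normalized reads per kilobase taken by each BH3-only gene in each library, vehicle at left and FOLFIRINOX at right; BIK is too low to draw. PMAIP1 is the largest part of every bar, and the BBC3 part is wider in each treated bar.

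The genes that hold these proteins in check moved unevenly. Of 6 antiapoptotic genes 4 were tested, with a median log2 difference of 0.08. BCL2L1, which encodes BCL-XL, rose from 15197 ± 781 to 24336 ± 3537 normalized reads (log2 0.67 ± 0.16, limma adjusted p = 0.0112), a call lost without FOLFIRINOX P19 (0.0661). BCL2 fell, with 59.7, 41.3 and 44.8 in FOLFIRINOX and 191, 318 and 202 in vehicle (log2 −2.24 ± 0.28, limma adjusted p = 2.6e-04). MCL1, the partner of NOXA, was at 47391 ± 3201 and 44739.8 ± 7286 (0.09 ± 0.16, limma adjusted p = 0.717), and its sign turned without vehicle P14, at −0.05. BCL2L2 differed by 0.07 ± 0.15 (adjusted p = 0.773). BCL2A1 and BCL2L10 had at most 19.5 and 16.5 normalized reads in any library and were not tested.

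Ratios of normalized reads within a library, not corrected for gene length, set the proapoptotic genes against the antiapoptotic ones. BBC3 over PMAIP1, also given, instead compares BH3-only genes with each other. BAX over BCL2 was 99.9, 173 and 135 in FOLFIRINOX and 21.9, 12.1 and 18.5 in vehicle (log2 difference 2.96). BAX over BCL2L1 was 0.298, 0.2855 and 0.2285 against 0.2605, 0.266 and 0.251, and these sets overlapped (log2 difference 0.05, exact permutation p = 0.8). BAX and BCL2L1 each rose, and within P14, P15 and P19 their ratio differed by 0.19, 0.10 and −0.14. BBC3 over BCL2L1 was 0.0315, 0.0296 and 0.0245 against 0.0099, 0.0086 and 0.0099, and BBC3 over MCL1 0.0144, 0.0161 and 0.0131 against 0.0044, 0.0025 and 0.0031. BBC3 over PMAIP1 was 0.123, 0.322 and 0.174 against 0.0654, 0.0725 and 0.0488. The log2 differences were 1.58, 2.16 and 1.63, and for these and BAX over BCL2 the sets did not overlap (exact permutation p = 0.1 each, 0.12 adjusted over the 6 ratios). That test does not use the P numbers. Flipping the signs of the differences within P numbers gave an exact p of 0.25 for each of these and for BAX over BAK1.

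**Figure D4:**
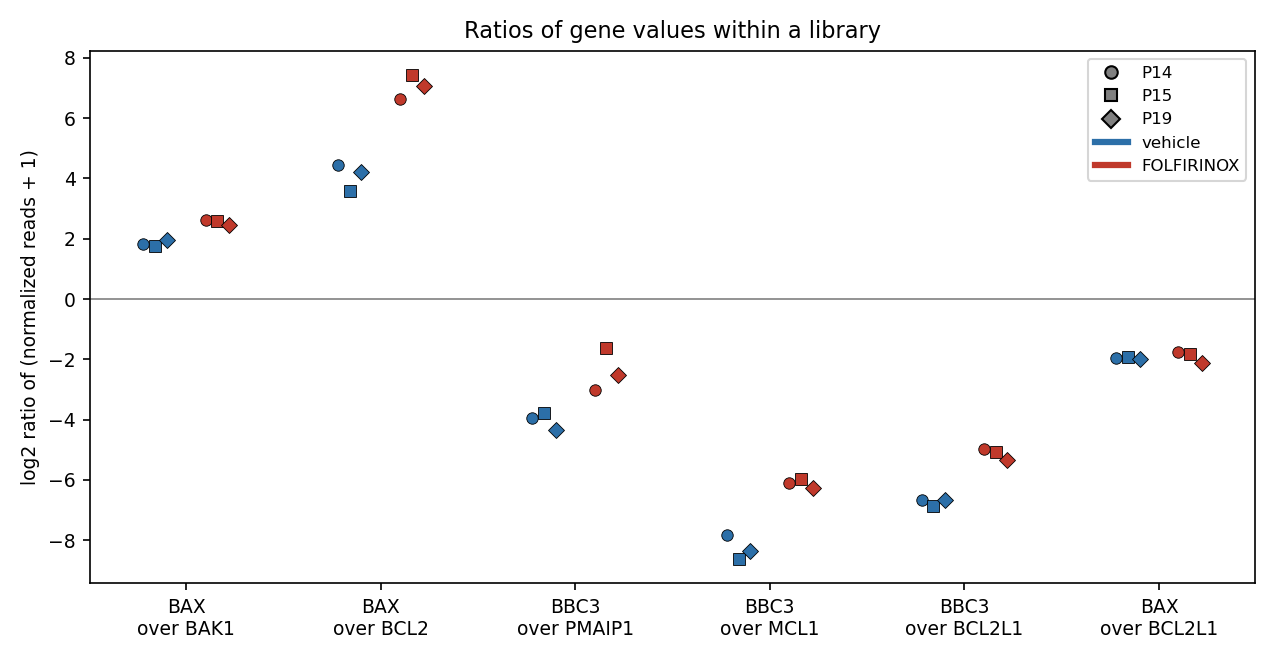
Log2 ratio of normalized reads (+ 1) of gene pairs within each library, with symbols for the P number, blue for vehicle and red for FOLFIRINOX. The red and blue points are apart for 5 ratios and overlap for BAX over BCL2L1.

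Of 11 other BCL2-related genes 7 were tested, 2 rose and 1 fell (median 0.21). Over all genes tested, 11.4% were called higher and 12.2% lower. BECN1, the autophagy protein with a BH3 domain, rose from 11008 ± 687 to 18316 ± 2357 (log2 0.73 ± 0.15, limma adjusted p = 0.0064). BNIP3L, a mitophagy receptor, rose by 0.70 ± 0.17 (0.0112), not called without FOLFIRINOX P19 (0.0651) or vehicle P15 (0.054), and 1 member was then higher. BCL2L12 fell by 1.61 on the log2 scale. HRK, another BH3-only gene, was among the 4 members under the filter.

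Among 19 apoptosome, caspase and inhibitor genes, not all of which act downstream of the pore, none was called higher by limma and 5 fell (median −0.08). The shares over all genes tested were 11.4% higher and 12.2% lower. BIRC5, which encodes survivin and is also a cell division gene, went from 9806 ± 936 to 64.5 ± 6.07, and ENDOG, a mitochondrial nuclease, from 602 ± 120.1 to 92.6 ± 11.3. CASP10, DFFB and CASP6, named after their values were seen, differed by −1.86, −0.91 and −0.58. BIRC2 alone was higher at an unadjusted p under 0.05, and edgeR and DESeq2 called 0 higher. With the replicate block 3 were called higher and 8 lower, where 22.3% of all genes tested were called higher and 21.8% lower. The inhibitors BIRC2 and BIRC3 were among the higher ones (0.66 and 0.39, limma adjusted p = 1.1e-05 and 0.0344 with the block). APAF1 and CASP9, the apoptosome core, differed by −0.20 ± 0.20 and 0.03 ± 0.19 and were not called in either fit. Without vehicle P19, 1 gene of the list was called higher.

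Of 12 transcription factor genes known to act on BH3-only genes, 11 were tested, 3 rose and 4 fell (median −0.14). Among all genes tested, 11.4% were called higher and 12.2% lower. FOXO1, a forkhead factor, rose from 77.7 ± 1.74 to 175 ± 53.3 (log2 1.12 ± 0.27, limma adjusted p = 0.0115), not called without FOLFIRINOX P15 (0.0539). ATF3 rose by 0.72 ± 0.17 and DDIT3, the stress factor CHOP, by 0.70 ± 0.22. E2F1 and TP73, an E2F target of the p53 family, had log2 differences of −3.65 and −3.30, and ATF4 and MYC of −0.75 and −0.55. DDIT3, ATF4 and MYC were named after their values were seen.

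Of 20 genes whose proteins bind, hold or degrade the proapoptotic proteins, 19 were tested. Where 11.4% of all genes tested were called higher and 12.2% lower, none of these was called higher and 3 fell (median −0.22). They were the survival kinases PIM1 and PIM3, which phosphorylate BAD, at −0.88 ± 0.27 and −0.78 ± 0.20, and the 14-3-3 gene YWHAH, named after its value was seen, at −0.59 ± 0.14 (limma adjusted p = 0.0376, 0.0173 and 0.0112). The PIM1 call was lost without FOLFIRINOX P14 or P19 or vehicle P14 or P15 (0.0712 to 0.152), without both P14 libraries (0.181), with common-total scaling (0.0573), without the trend (0.0795) and without a filter (0.0509). PIM3 was not called without FOLFIRINOX P14 (0.0595), vehicle P14 (0.0567) or both P14 libraries (0.111). Only 1 gene of this list was lower without FOLFIRINOX P14, FOLFIRINOX P19 or vehicle P14. With the replicate block 1 was higher and 8 lower, where 22.3% of all genes tested were called higher and 21.8% lower. MARCHF5 alone was higher at an unadjusted p under 0.05, and edgeR and DESeq2 called 0 higher, and 1 was called higher without vehicle P19. VDAC2, which retains BAK1 at mitochondria, and DYNLL1 and DYNLL2, the light chains that bind BIM and BMF, differed by −0.12, −0.05 and 0.24 and were not called.

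Of 18 p53 targets acting in or around cell death 17 were tested, 16 rose and 1 fell (median 2.08). Of all genes tested, 11.4% were called higher and 12.2% lower. This list was chosen with earlier results of these data known, so its counts and median are descriptions and not a test. CDKN1A, encoding p21, which halts the cell cycle, went up from 22156 ± 4997 to 203806 ± 27900.2 (log2 3.22 ± 0.19), and was the largest difference of the list after TNFRSF10C, a decoy receptor for TRAIL. TNFRSF10C was at 62.8, 63.9 and 41.1 in FOLFIRINOX and 3.07, 1.06 and 3.74 in vehicle, so it passed the filter only through the treated libraries and had to differ. With a filter at 50 it was not tested, and 15 of the list were called higher. SIVA1 fell by 0.72, a call lost without FOLFIRINOX P19 (limma adjusted p = 0.102), vehicle P14 (0.0786) or both P14 libraries (0.0827). Among the 10 proapoptotic genes, the difference of BBC3 (2.25) lay above the median of this list, and those of BAX (0.72) and PMAIP1 (0.62) lay below it.

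The genes whose profiles over the 6 libraries were nearest to each of the 4 risen genes were found among 13761 genes with a mean of 50 or more, by the root-mean-square difference of centred log2 values. Nearest to BAX were CYB5R1 (0.034) and VOPP1 (0.060), with log2 differences of 0.73 and 0.74. Nearest to BBC3 were TCEA3 (0.098), a transcription elongation factor gene, and LINC00663 (0.105), with 2.22 and 2.16. Nearest to BCL2L11 were DUSP5-DT (0.084) and LINC02709 (0.090), and nearest to BMF were KALRN (0.080) and MDK (0.085), of which KALRN was not called in the unpaired fit. The likeness covers 6 libraries in 2 groups and is given as a description.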

How the data were processed

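The tools named in the submitters' processing notes are STAR 2.7.11b, DESeq2, featureCounts 2.0.6 and FastQC 0.12.1, with the build GRCh38. The annotation release, the strand setting and the DESeq2 design are not stated in any label or header. DESeq2 on the recovered reads, with treatment as its only term, returned the authors' log2 fold changes and adjusted p-values for the 9 proapoptotic genes tested. The authors' calls of these genes are thus not separate from that alternative setting. The deposited table gives a library-size-normalized signal per library, and, as the authors' own comparison per the file headers, log2 fold changes, a Wald score, and p-values. All signal values (100%) were whole multiples, within 0.001, of the value of 1 read, so read counts were recovered. Even counts made up 72.3% to 74.8% of those below 50 reads, so that a fragment may count by both of its ends.

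Columns were assigned to groups by name, since P numbers appear in no label. Same-numbered libraries correlated in their deviations at 0.257 to 0.288, others at −0.263 to −0.027, so P numbers were read as pairs. No label says that libraries are separate cultures, so p-values measure the spread between libraries. Within groups, libraries varied beyond counting noise (chi-square per degree of freedom 75.3 to 236).

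The main test was limma 3.58.1 with trend on log2(value + 1), for genes at 10 or more in at least 3 libraries, at an adjusted p of 0.05 (median standard error 0.226). Named genes were the 10 genes, all antiapoptotic genes, up to 2 largest called differences per direction in each of 6 lists among genes whose higher group averaged at least 50, and the 2 nearest profiles per called gene among genes with an overall mean of 50 or more. Members and lists were chosen with earlier results of these data known, the p53 list included. Alternatives (19) were other pseudocounts, filters, scalings, edgeR 4.0.16, DESeq2 1.42.0, GC trend removal, the block, and leaving out libraries. GC content (longest GENCODE 29 transcript) was known for 96.5% of tested genes. The values of 1 listed gene are not reported here.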

Additional observations from a re-analysis of the deposited data

How the results depend on the processing

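Over 171 recomputed values of the 9 proapoptotic genes tested, 156 kept their direction and side of the threshold. BAX, BBC3 and BCL2L11 were called higher under all 19 alternatives. BMF lost its call in 5 alternatives, and PMAIP1 and BID gained one in 3 and 2. BAK1, never called, turned sign with TMM scaling (−0.0289), with edgeR (−0.0309) and without FOLFIRINOX P15, FOLFIRINOX P19 or vehicle P19, and ranged from −0.0767 to 0.0929 over the BAK1 fits that left out single libraries. MCL1 turned sign without vehicle P14 (−0.0486) and without both P14 libraries (−0.00375). BAX over BCL2L1 turned sign without FOLFIRINOX P14 (−0.0211, with 0.171 the highest when single libraries were left out).

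With the replicate block, 3995 of all genes tested were higher and 3918 lower, and with the block and GC trends removed 4277 and 4532, against 2047 and 2191 in the unpaired fit. Without both P14 libraries the counts were 1162 and 1368, and leaving out single libraries gave 1318 to 2218 higher. Common-total scaling moved the median of all tested genes from 0.02 to 0.13 and the split to 2684 higher and 1699 lower, 61.2% of calls higher against 48.3%. The block gave 1 proapoptotic gene lower, with and without GC removal. Among apoptosome and caspase genes it gave 3 higher and 8 lower, with GC removal 2 and 8. This list had 1 higher with common-total scaling, 1 with GC removal alone, and 0 to 1 without single libraries. Among binders and degraders the block gave 1 higher and 8 lower, with GC removal 4 and 9. GC removal alone gave 5 lower, a filter at 50 and common-total scaling 1 higher each, and leaving out single libraries 0 to 1 higher and 1 to 3 lower. Block and GC removal together gave 5 transcription factor genes higher. Without single libraries 0 to 1 antiapoptotic genes were higher, 1 to 2 other BCL2-related genes were higher, and 0 to 1 p53 targets were lower (0 without both P14 libraries). Beyond the changes given here and beside the results, the block changed no other call of a proapoptotic gene, and the cause of these shifts was not tested. With 3 libraries per group, differences near the median standard error cannot be shown.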
